A study of Homo sapiens with 12 samples.

Results

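Axon guidance ligands and receptors are the secreted or membrane-bound cues that steer a growing axon and the surface proteins that read them. The set was taken by name: transcripts whose gene belongs to the semaphorins of classes 3 to 7, the plexins, neuropilins, slits, Robo receptors, ephrins, Eph receptors, netrins, UNC5 receptors, DCC, neogenin (NEO1) or the repulsive guidance molecules RGMA and RGMB. This rule gave 62 genes, each with 1 transcript, of 19972 transcripts in the count table, 10872 of which carry a gene name. Of the 62 genes, 30 encode ligands (17 semaphorins, 7 ephrins, 3 slits, 2 RGMs and the netrin NTN1) and 32 encode receptors (14 Eph receptors, 8 plexins, 5 netrin receptors, 3 Robo receptors and 2 neuropilins). The rule itself used only gene names. Names were at hand only for transcripts in the deposited efficiency table. Of its 10932 transcripts, 10912 passed the filter on low RNA counts, against 14659 of 19972 in the count table. Genes with few counts may thus be missing from the set.

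The genes were measured in human induced neurons, which are neurons derived by forced expression of the transcription factor Ngn2 from H1, an established line of human embryonic stem cells. Nterm/Nterm neurons are homozygous for an allele of LLPH that the labels call Nterm, and wt/wt neurons carry the unaltered gene; what the allele changes, and how many clones stand behind each genotype, the sources used here do not give. Cultures of both genotypes had no added glia, received 2 µg/mL doxycycline and 4 µM cytosine arabinoside, a drug toxic to cells in division, and were harvested at day 14 in cycloheximide at 100 µg/mL, which stalls ribosomes on mRNA. Each genotype had 3 RNA-seq libraries, which measure mRNA, and 3 Ribo-seq libraries, which count footprints, the mRNA fragments covered by ribosomes. Libraries were assigned to genotypes by their titles, and the names of the count columns give the same genotypes. The genotype tag of the 6 Ribo-seq samples names the opposite genotype, so footprint directions rest on the titles and column names. The labels do not say whether replicates are separate cultures, and the p-values then reflect only how far these libraries spread, which may be technical.

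RNA libraries held 18944427 to 25089790 counts and footprint libraries 12652833 to 16356419. All 62 genes passed the filter on low counts, as did most transcripts with a deposited efficiency (10912 of 10932 in RNA and 10765 in footprints). The lowest count of the 62 genes in any library was 194 in RNA and 82 in footprints. LLPH itself had 39, 22 and 36 footprint counts in Nterm/Nterm libraries, against 88, 135 and 98 in wt/wt libraries. Its RNA had 611, 603 and 630 counts in Nterm/Nterm libraries, against 676, 627 and 687 in wt/wt libraries. These counts are not scaled to library size. Nterm/Nterm RNA libraries held 19794346, 18944427 and 21478215 counts in all, and wt/wt ones 24998450, 21834425 and 25089790. The raw counts therefore do not show lower LLPH RNA in Nterm/Nterm neurons. All 12 pan-neuronal markers looked up (TUBB3, MAP2, STMN2 and others) had a named transcript. None of them was at 0, which the naming largely settled, since names came only with a deposited ratio of footprints to RNA.

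As background, guidance receptors turn the binding of a cue into local changes of the growth cone's actin and microtubules. Slits repel axons through Robo receptors, and netrin-1 attracts through DCC or repels through UNC5 receptors. Class 3 semaphorins are secreted and act through a neuropilin that binds the cue together with a plexin that signals, whereas most other semaphorins sit in the membrane and bind plexins directly. Ephrins and Eph receptors are both held at the cell surface and signal where cells touch, in both directions. Many of these proteins also act outside axons: neuropilins, plexin D1, UNC5B, ephrin-B2 and EphB4 take part in the growth of blood vessels.

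To show the regulatory sequence beside the measurements, the 250 bases before the start are given for the gene with the largest called RNA increase and the largest called decrease among the ligands (SLIT1 and EFNA1) and among the receptors (EPHA3 and NRP2), counting genes with a single promoter entry in the RefSeq table used (build GRCh38.p14). Capitals mark CANNTG, the E-box that Ngn2 and other bHLH factors can bind, read on both strands. Their positions are chr10:97185960-97186209 on the minus strand for SLIT1, chr1:155127626-155127875 on the plus strand for EFNA1, chr3:89107371-89107620 on the plus strand for EPHA3 and chr2:205682251-205682500 on the plus strand for NRP2.
SLIT1: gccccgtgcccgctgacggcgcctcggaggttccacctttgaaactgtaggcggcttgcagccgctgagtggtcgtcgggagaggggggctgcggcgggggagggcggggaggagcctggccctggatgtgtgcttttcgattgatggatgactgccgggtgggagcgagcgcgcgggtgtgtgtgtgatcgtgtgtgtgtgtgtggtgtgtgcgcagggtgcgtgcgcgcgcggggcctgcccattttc
EFNA1: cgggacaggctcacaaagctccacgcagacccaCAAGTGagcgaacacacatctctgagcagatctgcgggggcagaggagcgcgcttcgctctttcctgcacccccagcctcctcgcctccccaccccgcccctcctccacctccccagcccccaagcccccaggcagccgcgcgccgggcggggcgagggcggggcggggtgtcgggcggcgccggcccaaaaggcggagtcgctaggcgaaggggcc
EPHA3: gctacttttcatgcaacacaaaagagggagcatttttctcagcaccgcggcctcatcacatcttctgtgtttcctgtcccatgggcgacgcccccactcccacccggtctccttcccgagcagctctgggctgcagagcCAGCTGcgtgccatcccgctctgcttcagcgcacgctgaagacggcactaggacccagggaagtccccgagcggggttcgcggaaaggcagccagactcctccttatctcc
NRP2: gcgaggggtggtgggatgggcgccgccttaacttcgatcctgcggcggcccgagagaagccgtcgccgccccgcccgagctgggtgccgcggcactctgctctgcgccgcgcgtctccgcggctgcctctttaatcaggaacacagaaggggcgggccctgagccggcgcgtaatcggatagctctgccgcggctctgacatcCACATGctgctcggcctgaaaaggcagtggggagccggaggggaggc

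CANNTG occurred once in each of the EFNA1, EPHA3 and NRP2 windows, and these letters were not in the SLIT1 window. The GC-box letters GGGCGG, the core of Sp1-type sites, occurred 5 times in the EFNA1 window, 3 times in the NRP2 window and once in the SLIT1 window, counting both strands. Over the 53 genes with a matched entry (83 promoters), 72.3% of windows held GGGCGG, against 42.6% of all 35116 windows of this length in the table. CANNTG was in 50.6% of the guidance gene windows, against 61.8% of all windows, and CAGATG, an E-box form that overlaps CANNTG, was in 4.82%, against 12.2%. The TATA-box letters TATAAA were in 3.61% of them, against 10.7%. Windows of the genes called lower in RNA held GGGCGG in 12 of 13 cases, windows of the genes called higher in 14 of 23 and windows of the genes not called in 34 of 47. These are counts of letters, with no test, and several windows can belong to 1 gene. The windows set beside them include genes without a deposited ratio of footprints to RNA, whereas every guidance gene here has one. The groups thus differ in more than guidance, and the shares cannot be read as traits of guidance genes.

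The RNA comparison asked which guidance mRNAs differ between Nterm/Nterm and wt/wt neurons. Of the 62 genes, 16 were higher and 14 lower in Nterm/Nterm neurons (edgeR's quasi-likelihood test, adjusted p under 0.05), or 25.8% and 22.6%. Among all 14659 transcripts tested, 7.25% were higher and 10.6% lower, and among the named ones, which are better covered, 8.91% were higher and 11.7% lower. For 41 of the 62 genes (66.1%) no Nterm/Nterm library fell within the range of the wt/wt libraries, nor the reverse, against 39.2% of named transcripts. Changes were modest in size: they ran from a log2 change of -0.65 for NRP2 to 0.63 for EPHA4, and the median size, whatever the sign, was 0.21 for guidance genes and 0.10 for named transcripts. The count of calls rested on single libraries: it was 14 (5 higher, 9 lower) without wt/wt RNA library 1, 15 (5 higher, 10 lower) without wt/wt library 2 and 20 (9 higher, 11 lower) without Nterm/Nterm library 3. Counts of the RNA libraries with the same replicate number deviated together, and with the replicate number as a block 42 genes were called, 25 higher and 17 lower, including all 30. Calls over all transcripts moved in the same runs: they numbered 841, 964 and 1729 without these libraries and 4504 with the block, against 2624 with all libraries and no block, so the shares of all transcripts given above do not apply to the counts of those runs.

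Several lists of markers, of neurons and of other cell types, also differed between the genotypes in RNA. The lists hold few genes, and among named transcripts 8.91% were called higher in RNA and 11.7% lower. Summed RNA of the 12 pan-neuronal markers was 18454 to 20025 CPM (counts scaled to library size) in Nterm/Nterm libraries. In wt/wt libraries it was 16080 to 17244 CPM. Of these 12 markers 9 were called higher in RNA and 0 lower. In footprints 3 of the 12 were called higher and 0 lower, against 4.8% and 8.13% of named transcripts. Their footprint sums were 9395 to 9674 CPM in Nterm/Nterm libraries and 6840 to 8889 CPM in wt/wt libraries. Of 12 mesenchymal markers 6 had a named transcript, 1 higher and 5 lower, with a summed level of 2757 to 3611 CPM in Nterm/Nterm libraries, against 4135 to 5099 CPM in wt/wt libraries. Neural progenitor markers (7 of 10 named, 1 higher and 5 lower) summed to 907 to 1058 CPM in Nterm/Nterm libraries, against 1161 to 1251 CPM in wt/wt libraries. Pluripotent cell markers (3 of 7 named, 0 higher and 2 lower) summed to 424 to 504 CPM in Nterm/Nterm libraries, against 581 to 650 CPM in wt/wt libraries. No marker with a named transcript was at 0, but names came only with a deposited ratio of footprints to RNA, which largely settled this. The part of these markers in the results was not tested. In such bulk libraries, fewer cells of a type and less RNA per cell cannot be told apart. In the other lists, of 7 named peripheral sensory markers 4 were higher and 1 lower, of 4 glutamatergic markers 0 were called, of 3 glial markers 1 was lower, the 1 named endothelial marker was not called, and 0 of 5 GABAergic markers had a named transcript.

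Ligands and receptors were called in both directions. Among the 30 ligands 6 were higher and 5 lower (20.0% and 16.7%), and among the 32 receptors 10 were higher and 9 lower (31.2% and 28.1%). The median RNA log2 change was 0.10 for ligands, 0.04 for receptors and 0.01 for named transcripts. The median size of the change, whatever its sign, was 0.27 for receptors and 0.16 for ligands. The summed level of the ligands was 2499, 2531 and 2630 CPM in Nterm/Nterm libraries, against 2437, 2422 and 2470 CPM in wt/wt libraries. That of the receptors was 3570, 3620 and 3825 CPM in Nterm/Nterm libraries, against 3414, 3378 and 3493 CPM in wt/wt libraries. Neither sum overlapped between the genotypes, though long and abundant transcripts weigh most in them. These comparisons of ligands with receptors are descriptions, since genes are not replicates.

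**Figure D1:**
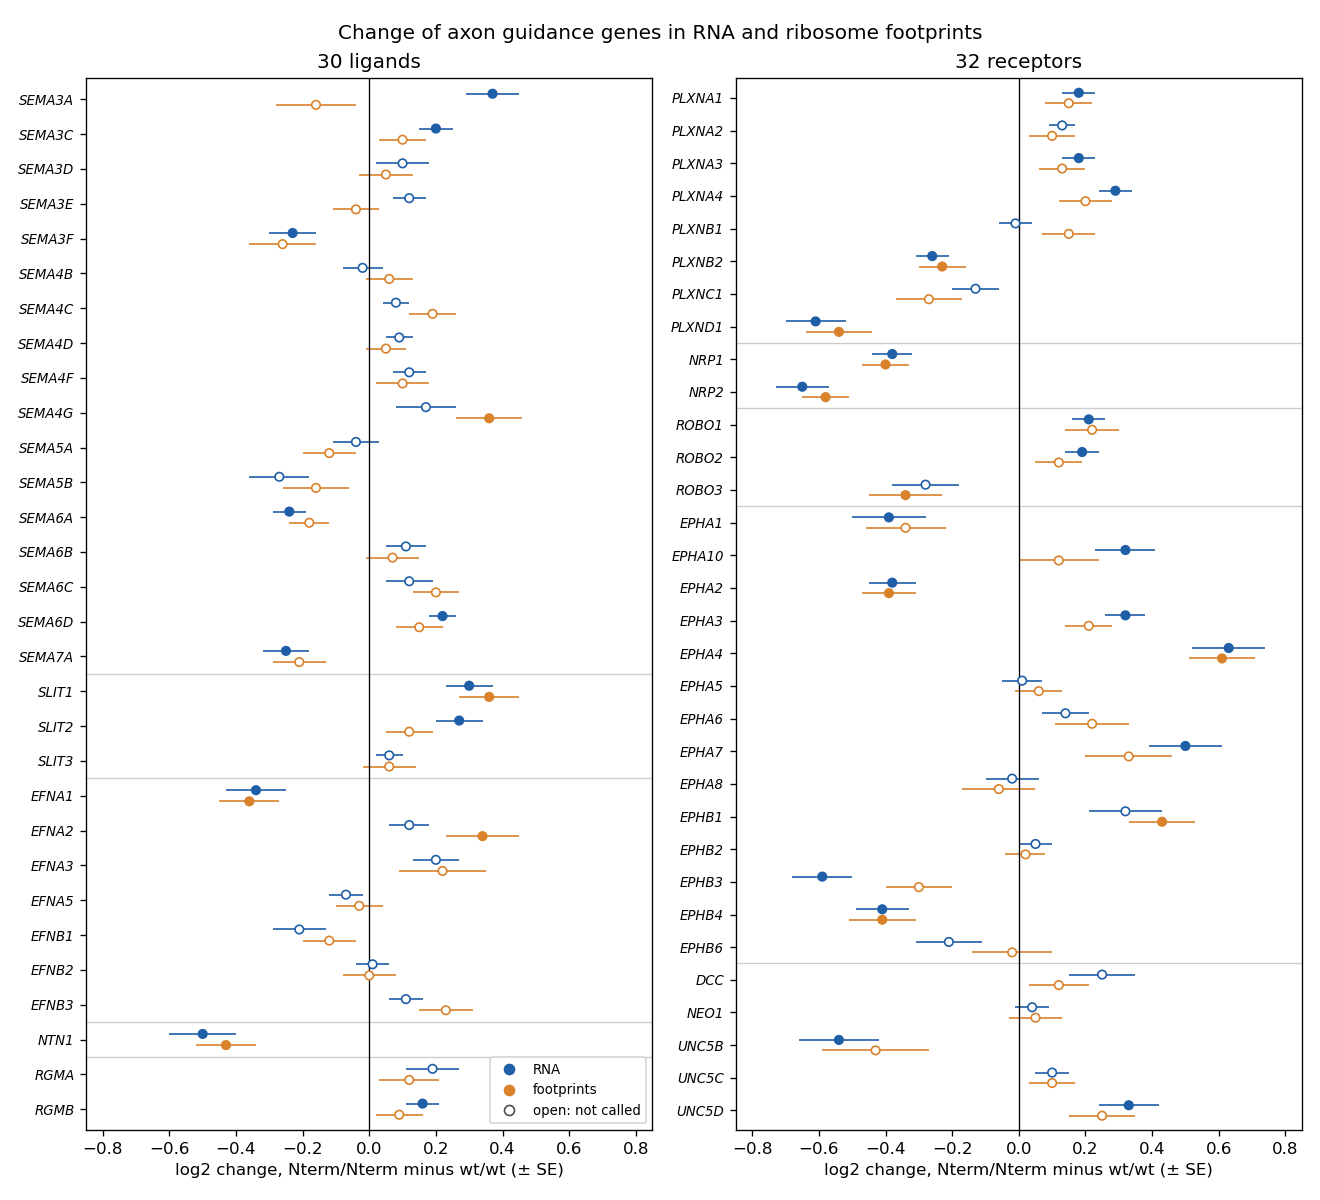
Log2 change of each of the 62 guidance genes in RNA (blue) and footprints (orange), Nterm/Nterm minus wt/wt with its SE, ligands on the left and receptors on the right, families separated by grey lines. Filled points passed the adjusted p threshold. The largest RNA changes, NRP2 at -0.65 and EPHA4 at 0.63, are both receptors.

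In Nterm/Nterm RNA 2 of 3 slits and 2 of 3 Robo receptors were called higher, and none lower. Groups of 3 genes are too small to set against the 8.91% of named transcripts called higher and the 11.7% called lower. In footprints only SLIT1 among them was called higher, and ROBO3 was called lower. SLIT1, a secreted repellent, had 31.3, 32.7 and 36.5 CPM in Nterm/Nterm RNA libraries, against 26, 27 and 28.7 CPM in wt/wt libraries. Every Nterm/Nterm library lay above every wt/wt library, a log2 change of 0.30 ± 0.07 (SE, adjusted p = 0.0157). SLIT2, its close relative, rose by 0.27 ± 0.07 (adjusted p = 0.0273). SLIT3 had 145, 135 and 143 CPM in Nterm/Nterm libraries, against 133, 133 and 139 CPM in wt/wt libraries, which overlapped (0.06 ± 0.04, adjusted p = 0.372). ROBO1, a slit receptor, had 456, 462 and 504 CPM in Nterm/Nterm libraries, against 394, 406 and 425 CPM in wt/wt libraries. These groups did not overlap (0.21 ± 0.05, adjusted p = 0.0101). ROBO2, which also binds slits, had 230, 236 and 250 CPM in Nterm/Nterm libraries, against 206, 205 and 218 CPM in wt/wt libraries (0.19 ± 0.05, adjusted p = 0.0168), again without overlap. ROBO3, which in mice lets commissural axons cross the midline, had a log2 change of -0.28 ± 0.10 (adjusted p = 0.0812, and 0.0274 with the replicate block). Without wt/wt RNA library 1 or 2, none of these RNA calls held. The highest adjusted p was 0.0897 for SLIT1, 0.135 for SLIT2, 0.0715 for ROBO1 and 0.0956 for ROBO2. The RNA calls of SLIT1 and SLIT2 were also lost without Nterm/Nterm library 3. These runs had no replicate block. With the block and all libraries, adjusted p was 0.00057 for SLIT1, 1.01e-05 for SLIT2, 1.29e-06 for ROBO1 and 4.37e-05 for ROBO2.

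The netrin NTN1 fell in Nterm/Nterm RNA while its receptors went both ways, with 1 of 5 higher and 1 of 5 lower. That is too few genes to set against the named transcripts, of which 8.91% were higher and 11.7% lower. NTN1 had 61.2, 64.5 and 48.6 CPM in Nterm/Nterm RNA libraries, against 92.0, 79.6 and 74.5 CPM in wt/wt libraries. All 3 Nterm/Nterm libraries were below the lowest wt/wt library (-0.50 ± 0.10, adjusted p = 0.0056). UNC5B, a repulsive netrin receptor also known from blood vessels, had 10.2, 10.2 and 9.06 CPM in Nterm/Nterm libraries, against 16.9, 13.4 and 12.4 CPM in wt/wt libraries (-0.54 ± 0.12, adjusted p = 0.0116, and 0.0629 without wt/wt library 1). UNC5D, of the same receptor family, had 24.9, 29.0 and 30.1 CPM in Nterm/Nterm libraries, against 21.4, 21.0 and 24.4 CPM in wt/wt libraries (0.33 ± 0.09, adjusted p = 0.0216). So these relatives were called in opposite directions, each with no overlap between the genotypes; the UNC5D call was lost without wt/wt library 1 or 2 or Nterm/Nterm library 3 (highest adjusted p = 0.102). DCC, the attractive netrin receptor, stood at 0.25 ± 0.10 (adjusted p = 0.112, and 0.00671 with the replicate block), and UNC5C at 0.10 ± 0.05 (adjusted p = 0.2, and 0.0254 with the block). NEO1, neogenin, which binds netrins and RGMs, had 159, 159 and 177 CPM in Nterm/Nterm libraries, against 162, 158 and 162 CPM in wt/wt libraries (0.04 ± 0.05, adjusted p = 0.652). RGMB, a neogenin ligand and BMP co-receptor, had 111, 104 and 112 CPM in Nterm/Nterm libraries, against 94.0, 96.8 and 103 CPM in wt/wt libraries. That was a log2 change of 0.16 ± 0.05 (adjusted p = 0.0475), close to the threshold and lost without wt/wt library 1 or 2 or Nterm/Nterm library 1 or 3 (highest adjusted p = 0.215), and DESeq2 gave 0.0525. Its relative RGMA stood at 0.19 ± 0.08 (adjusted p = 0.143, and 0.0143 with the block).

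Of the 17 semaphorins, 3 rose, 3 fell and 11 were not called in RNA of Nterm/Nterm neurons, which is 17.6% in each direction, against the 8.91% of named transcripts that were higher and the 11.7% that were lower. SEMA3A, a secreted cue that collapses growth cones, had 19.0, 20.3 and 20.4 CPM in Nterm/Nterm RNA libraries, against 15.5, 16.4 and 14.2 CPM in wt/wt libraries. The groups were apart (0.37 ± 0.08, adjusted p = 0.00931), and this was the largest rise among the ligands. SEMA3C, also secreted, had 406, 421 and 444 CPM in Nterm/Nterm libraries, against 358, 366 and 386 CPM in wt/wt libraries (0.20 ± 0.05, adjusted p = 0.0125). SEMA6D, a membrane semaphorin that binds plexin A1, had 252, 244 and 263 CPM in Nterm/Nterm libraries, against 218, 209 and 223 CPM in wt/wt libraries (0.22 ± 0.04, adjusted p = 0.00607). In both, every Nterm/Nterm library was higher. SEMA6A, a membrane ligand of plexins A2 and A4, had 134, 142 and 140 CPM in Nterm/Nterm libraries, against 171, 159 and 160 CPM in wt/wt libraries, all lower (-0.24 ± 0.05, adjusted p = 0.0053). SEMA3F, a ligand of neuropilin-2, and SEMA7A, a GPI-anchored ligand of plexin C1 and integrins, were lower too (-0.23 ± 0.07 and -0.25 ± 0.07, adjusted p = 0.0438 and 0.0329). The SEMA7A libraries overlapped, the highest Nterm/Nterm library at 78.6 CPM and the lowest wt/wt library at 78 CPM. Without single libraries, 4 of these 6 calls could be lost: SEMA3C without wt/wt library 1 or 2 (highest adjusted p = 0.0834), SEMA6D without wt/wt library 2 (0.0504), SEMA7A without any of wt/wt library 1 or 2 or Nterm/Nterm library 2 or 3 (0.154), and SEMA3F without any library but Nterm/Nterm library 2 (0.176), and in DESeq2 (0.075). None of the 5 class 4 semaphorins was called (-0.02 to 0.17). With the replicate block, SEMA3E (0.12, adjusted p = 0.0283, against 0.0987 without it), SEMA6C (0.12, 0.0246, against 0.238) and SEMA5B (-0.27, 0.0282, against 0.057) were called too.

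The semaphorin receptors are the plexins and neuropilins. Of the 4 class A plexins, which pair with neuropilins or bind class 6 semaphorins, 3 rose and none fell in Nterm/Nterm RNA; of the 4 plexins of classes B, C and D, 2 fell and none rose; both neuropilins fell. Over all 8 plexins, 3 rose and 2 fell. These groups hold too few genes to set against the named transcripts, of which 8.91% were higher and 11.7% lower in RNA. The difference between the classes was not tested, and in footprints none of the 4 class A plexins was called. PLXNA4 had 936, 901 and 996 CPM in Nterm/Nterm RNA libraries, against 771, 737 and 816 CPM in wt/wt libraries (0.29 ± 0.05, adjusted p = 0.00271). PLXNA3 had 119, 122 and 131 CPM in Nterm/Nterm libraries, against 107, 109 and 112 CPM in wt/wt libraries (0.18 ± 0.05, adjusted p = 0.0209). Neither overlapped, and PLXNA1 rose by as much as PLXNA3 (0.18 ± 0.05, adjusted p = 0.0377). PLXNA1 and PLXNA3 were lost without wt/wt library 1 or 2 or Nterm/Nterm library 3 (adjusted p up to 0.169 and 0.113), whereas PLXNA2 (0.13 ± 0.04, adjusted p = 0.0581) was gained with the replicate block (0.00257). PLXND1, the receptor that binds SEMA3E without a neuropilin, had 42.1, 44.7 and 38.2 CPM in Nterm/Nterm libraries, against 69.3, 67.8 and 53.2 CPM in wt/wt libraries (-0.61 ± 0.09, adjusted p = 0.00168). PLXNB2, a receptor of class 4 semaphorins, had 138, 153 and 138 CPM in Nterm/Nterm libraries, against 176, 175 and 164 CPM in wt/wt libraries (-0.26 ± 0.05, adjusted p = 0.0051). In both plexins all Nterm/Nterm libraries were the lower ones. PLXNB1 and PLXNC1 were not called (-0.01 ± 0.05 and -0.13 ± 0.07).

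NRP2, the neuropilin that binds SEMA3F, had 41.0, 40.0 and 37.7 CPM in Nterm/Nterm RNA libraries, against 68.2, 63.5 and 54.1 CPM in wt/wt libraries. This was the largest fall of the set (-0.65 ± 0.08, adjusted p = 0.000468), with a wide gap between the genotypes. NRP1, which binds SEMA3A and vascular growth factor, had 90.5, 84.4 and 78.7 CPM in Nterm/Nterm libraries, against 112, 114 and 105 CPM in wt/wt libraries (-0.38 ± 0.06, adjusted p = 0.0014). Calls of NRP1, NRP2, PLXND1, PLXNB2 and PLXNA4 held without any single library, in every alternative run. These falls stand beside the lower mesenchymal, progenitor and pluripotent RNA sums given above. Among mesenchymal markers, the fibronectin gene FN1 had an RNA log2 change of -0.58 ± 0.12 and the collagen gene COL1A2 one of -0.54 ± 0.08. THY1 of the same list rose (0.19 ± 0.06), as did the progenitor marker SOX1 (0.84 ± 0.10). In footprints, mesenchymal sums were 3765 to 5111 CPM in Nterm/Nterm libraries and 5035 to 6234 CPM in wt/wt libraries, which overlapped. Progenitor footprint sums overlapped too (1355 to 1590 and 1366 to 1707 CPM), whereas pluripotent ones did not (682 to 841 and 886 to 934 CPM). The part of those cells in them was not tested.

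**Figure D2:**
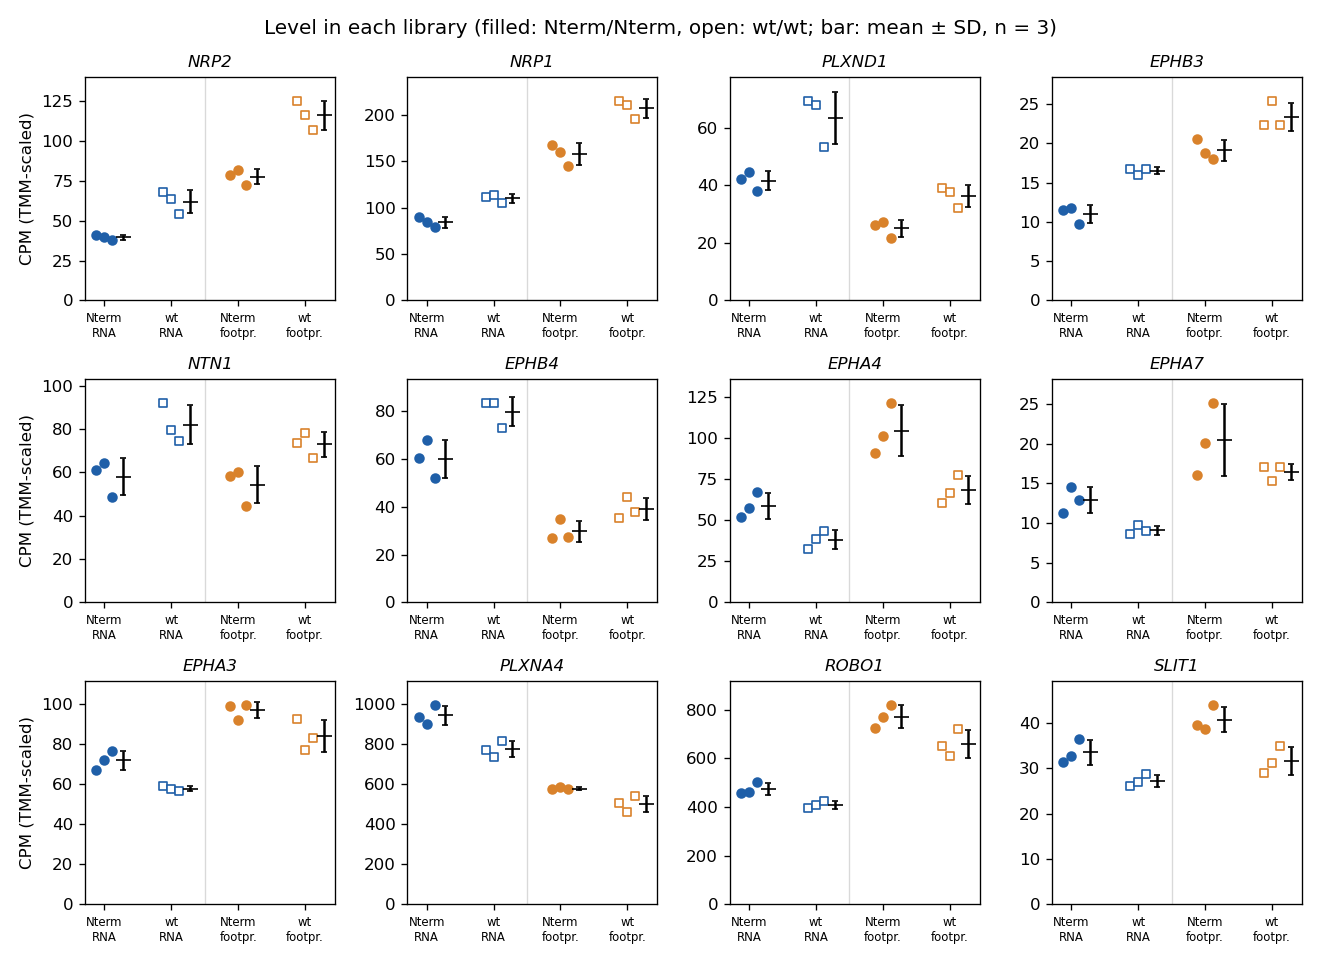
Level of 12 guidance genes in each library, in CPM after TMM scaling, from 0: RNA in blue and footprints in orange, Nterm/Nterm filled and left of open wt/wt, with the mean and SD (n = 3) beside the points. The 3 Nterm/Nterm RNA values of NRP2, 37.7 to 41.0 CPM, lie below the 3 wt/wt values, 54.1 to 68.2 CPM, and those of EPHA4 lie above.

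Eph receptors held the largest rise and several of the larger falls. In RNA of Nterm/Nterm neurons 4 of 14 rose and 4 fell, 28.6% each way. Among named transcripts 8.91% were higher and 11.7% lower. EPHA4, a receptor that can bind ephrins of both classes, had 51.6, 57.2 and 67.1 CPM in Nterm/Nterm RNA libraries, against 32.3, 38.2 and 43.6 CPM in wt/wt libraries (0.63 ± 0.11, adjusted p = 0.00287). EPHA7, a receptor of ephrin-A ligands, had 11.2, 14.5 and 12.9 CPM in Nterm/Nterm libraries, against 8.56, 9.70 and 8.98 CPM in wt/wt libraries (0.50 ± 0.11, adjusted p = 0.0109, and 0.0621 without wt/wt library 1). EPHA3, also an ephrin-A receptor, had 67.0, 71.8 and 76.4 CPM in Nterm/Nterm libraries, against 58.9, 57.5 and 56.4 CPM in wt/wt libraries (0.32 ± 0.06, adjusted p = 0.00311). All 3 were without overlap between genotypes. The kinase-inactive EPHA10 rose by 0.32 ± 0.09 (adjusted p = 0.0349), a call lost without wt/wt library 1 or 2 or Nterm/Nterm library 1 or 3 (highest adjusted p = 0.154).

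The Eph receptors that fell were EPHA1, EPHA2, EPHB3 and EPHB4. EPHA2, best known from epithelia and stem cells, had 60.8, 63.5 and 53.7 CPM in Nterm/Nterm RNA libraries, against 81.5, 77.8 and 72.0 CPM in wt/wt libraries (-0.38 ± 0.07, adjusted p = 0.00321). EPHB3, a receptor of ephrin-B ligands, had 11.5, 11.8 and 9.71 CPM in Nterm/Nterm libraries, against 16.8, 16.0 and 16.8 CPM in wt/wt libraries (-0.59 ± 0.09, adjusted p = 0.00187). EPHB4, the ephrin-B2 receptor of veins, had 60.4, 67.7 and 51.8 CPM in Nterm/Nterm libraries, against 83.2, 83.1 and 72.7 CPM in wt/wt libraries (-0.41 ± 0.08, adjusted p = 0.0075). In each, the highest Nterm/Nterm library lay below the lowest wt/wt library. EPHA1 fell by 0.39 ± 0.11 on the log2 scale (adjusted p = 0.0284), lost without wt/wt library 1 or 2 or Nterm/Nterm library 1 or 3 (highest adjusted p = 0.14). EPHB2 had 174, 167 and 190 CPM in Nterm/Nterm libraries, against 176, 163 and 175 CPM in wt/wt libraries, overlapping (0.05 ± 0.05, adjusted p = 0.552). EPHB1 had 14.9, 14.7 and 16.7 CPM in Nterm/Nterm libraries, against 10.6, 12.6 and 14.0 CPM in wt/wt libraries. Its log2 change of 0.32 ± 0.11 was just outside the threshold (adjusted p = 0.0597), and inside it with the replicate block (0.00708).

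Of the 7 ephrins, the ligands of these receptors, 1 fell (14.3%) and none rose in RNA, which is too few genes to set against the 11.7% and 8.91% of named transcripts. EFNA1, a GPI-anchored ephrin, had 36.7, 38.0 and 29.7 CPM in Nterm/Nterm RNA libraries, against 45.4, 46.5 and 39.8 CPM in wt/wt libraries (-0.34 ± 0.09, adjusted p = 0.0231). Its call was lost without wt/wt library 1 or 2 (highest adjusted p = 0.106). EFNB2, a transmembrane ephrin, had 152, 158 and 148 CPM in Nterm/Nterm libraries, against 150, 157 and 146 CPM in wt/wt libraries, so the groups overlapped (0.01 ± 0.05, adjusted p = 0.88). With the replicate block EFNA3 (0.20, adjusted p = 0.0172, against 0.0668 without it), EFNB3 (0.11, 0.0447, against 0.137) and EFNB1 (-0.21, 0.00133, against 0.0829) were called as well. Over the whole set, the 32 genes not called without the block ran from -0.28 to 0.32, with SEs of 0.04 to 0.12 over all 62.

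The footprint comparison asked whether ribosome footprints on these mRNAs moved as the mRNAs did. In footprints 5 genes were higher (8.06%) and 9 lower (14.5%) in Nterm/Nterm neurons, against 4.8% and 8.13% of named transcripts and 4.36% and 8.91% of all transcripts tested. For 30 of the 62 genes (48.4%) the genotypes were apart, against 30.6% of named transcripts. Called higher were EPHA4, EPHB1, SLIT1, SEMA4G and EFNA2; called lower were NRP2, PLXND1, NTN1, EPHB4, NRP1, EPHA2, EFNA1, ROBO3 and PLXNB2. By side, 3 ligands were higher (10.0%) and 2 lower (6.67%), and 2 receptors were higher (6.25%) and 7 lower (21.9%). The shares of ligands that were lower and of receptors that were higher were near those of named transcripts. The count was 9 without Nterm/Nterm footprint library 3 or without wt/wt footprint library 2, and it was 23 without the filter on low counts; over all transcripts these runs called 965, 978 and 2295, against 1800.

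Receptors led the footprint changes. NRP2 had 78.9, 81.7 and 72.4 CPM in Nterm/Nterm footprint libraries, against 125, 116 and 107 CPM in wt/wt libraries (-0.58 ± 0.07, adjusted p = 3.52e-05). EPHA4 had 90.6, 101 and 121 CPM in Nterm/Nterm libraries, against 60.3, 66.7 and 77.5 CPM in wt/wt libraries (0.61 ± 0.10, adjusted p = 0.000277). Both were apart, as they were in RNA. NRP1 had 168, 160 and 145 footprint CPM in Nterm/Nterm libraries, against 215, 211 and 196 CPM in wt/wt libraries (-0.40 ± 0.07, adjusted p = 0.000883). PLXND1 had 26.1, 27.3 and 21.8 footprint CPM in Nterm/Nterm libraries, against 39.2, 37.6 and 32.0 CPM in wt/wt libraries (-0.54 ± 0.10, adjusted p = 0.00124). These 2 were lower in all 3 Nterm/Nterm libraries. EPHB1 had 20.4, 22.3 and 20.7 footprint CPM in Nterm/Nterm libraries, against 15.8, 15.6 and 15.8 CPM in wt/wt libraries (0.43 ± 0.10, adjusted p = 0.00611). EPHA2 fell by 0.39 ± 0.08 on the log2 scale, EPHB4 by 0.41 ± 0.10 and PLXNB2 by 0.23 ± 0.07. The EPHB4 call was lost without Nterm/Nterm footprint library 1 or wt/wt library 2 (highest adjusted p = 0.0957), that of PLXNB2 without Nterm/Nterm library 1 or 3 or wt/wt library 2 (0.104), and that of ROBO3 (-0.34 ± 0.11, adjusted p = 0.0457) without any 1 of the 6 (0.225) and in DESeq2 (0.0793).

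Among ligands, NTN1 had 58.3, 60.2 and 44.5 CPM in Nterm/Nterm footprint libraries, against 73.5, 78.4 and 66.8 CPM in wt/wt libraries (-0.43 ± 0.09, adjusted p = 0.00465). SLIT1 had 39.6, 38.6 and 43.9 footprint CPM in Nterm/Nterm libraries, against 28.9, 31.1 and 35.0 CPM in wt/wt libraries (0.36 ± 0.09, adjusted p = 0.00862, and 0.0628 without wt/wt footprint library 1). EFNA1 fell by 0.36 ± 0.09 (adjusted p = 0.0105, and at most 0.0887 without Nterm/Nterm footprint library 3 or wt/wt library 2). SEMA4G, a membrane semaphorin, and EFNA2 rose in footprints (0.36 ± 0.10 and 0.34 ± 0.11, adjusted p = 0.0249 and 0.0385) with no RNA call (0.17 ± 0.09 and 0.12 ± 0.06). SEMA4G was lost without any of Nterm/Nterm library 1 or 3 or wt/wt library 1 or 2 (highest adjusted p = 0.154), and EFNA2 without any library but wt/wt library 2 (0.221) and in DESeq2 (0.0505).

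RNA and footprint changes ran together across the set. The sign was the same for 57 of 62 genes, and the 10 genes called in both assays had the same direction in both. A further 20 were called in RNA only, 4 in footprints only and 28 in neither. Across the 62 genes, the log2 changes in RNA and footprints had a Pearson correlation of 0.907 and a Spearman correlation of 0.861, against 0.854 and 0.709 across 10745 named transcripts. These are descriptions across genes that share the same 12 libraries. The difference between the ligand and receptor medians was small in both assays: 0.06 log2 units in RNA, and 0.02 without wt/wt RNA library 1, and -0.02 in footprints. As single libraries were left out, it ranged from 0.02 to 0.05 in RNA and from -0.03 to 0.03 in footprints.

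**Figure D3:**
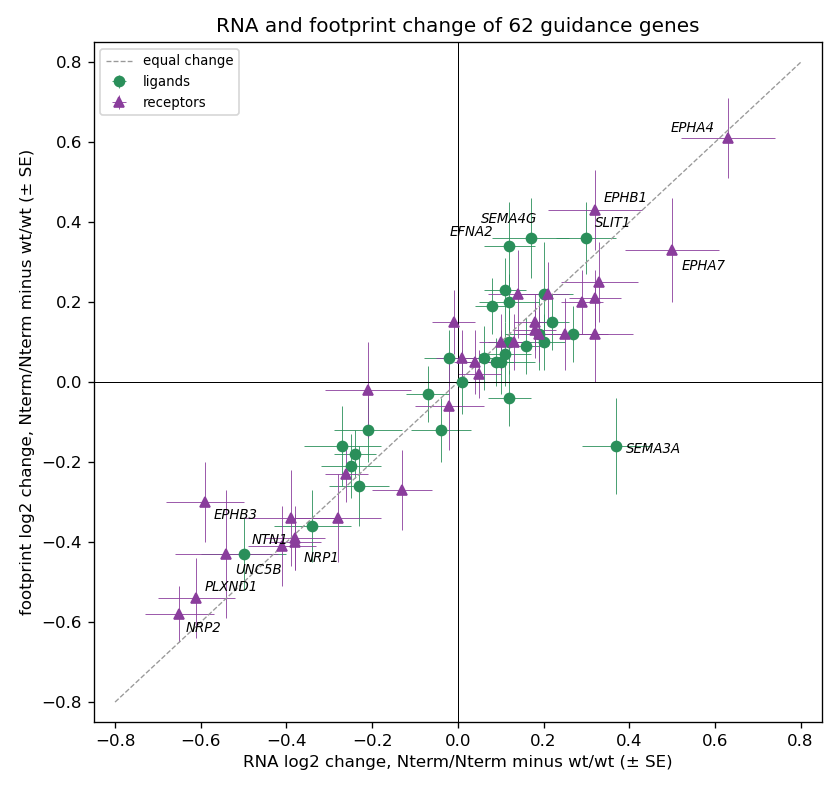
Log2 change in footprints (vertical) against log2 change in RNA (horizontal), Nterm/Nterm minus wt/wt with SEs, for 30 ligands (green circles) and 32 receptors (purple triangles); the dashed line marks equal change. Most genes lie along the line, and SEMA3A lies well below it, at 0.37 in RNA and -0.16 in footprints.

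Translational efficiency, the footprint level relative to RNA, was tested as an interaction in 1 model over both assays. None of the 62 genes passed in either direction with edgeR or with DESeq2, and 2 had an unadjusted p under 0.05 in edgeR; of all transcripts tested 0.0203% passed, and of named ones 0.0274%. SEMA3A had the largest change, a log2 difference of -0.53 ± 0.15 (adjusted p = 0.765). SEMA3A footprints were 15.1, 14.8 and 13.6 CPM in Nterm/Nterm libraries, against 18.3, 17.0 and 13.3 CPM in wt/wt libraries, which overlapped, beside the RNA values given above, which did not. EPHB3 had the largest change upward, 0.30 ± 0.13, with 20.6, 18.8 and 18.0 footprint CPM in Nterm/Nterm libraries, against 22.3, 25.4 and 22.4 CPM in wt/wt libraries. The SE of the difference ran from 0.07 to 0.21 with a median of 0.11, which bounds what this fit could detect per gene. This fit takes the 12 libraries as independent and leaves out any pairing of RNA with footprint libraries. With the replicate block 0 of the 62 genes were called, and 20 of all transcripts, against 3 without it. The medians were 0.00 for ligands and -0.01 for receptors.

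In the authors' deposited table, 3 of the 62 genes (4.84%) had an unadjusted p under 0.05, close to the 4.67% of all transcripts listed there. They were SEMA3A, with a deposited ratio of Nterm/Nterm to wt/wt efficiency of 0.691 (p = 0.0255), SEMA6D with 0.946 (p = 0.00854) and ROBO2 with 0.95 (p = 0.0405), each from the authors' deposited table. All 3 were below 1.

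The efficiency itself differed more between genes than between genotypes. In the authors' deposited table, the ratio of Nterm/Nterm to wt/wt efficiency ran from 0.691 for SEMA3A to 1.22 for EPHB3. From the authors' deposited table, the mean wt/wt ratio of footprints to RNA ran from 0.328 for EFNA3 to 2.25 for EPHA5, and in Nterm/Nterm neurons the same genes had 0.328 and 2.31. The median wt/wt ratio was 1.01 for ligands, 1.19 for receptors and 1.11 for all transcripts of that table, with quartiles of 0.667 and 1.54 for ligands and 0.77 and 1.59 for receptors. Both neuropilins stood high, at a median of 1.81, and both RGMs low, at 0.498. Within the Eph receptors, EPHA members had a median of 1.4 and EPHB members 0.773, and within the ligands semaphorins had 1.34, ephrins 0.747 and the ephrin-B members 0.64. Plexins, the signalling partners of the neuropilins, had a median of 0.743. The quartiles of all transcripts were 0.704 and 1.61. The EPHA, EPHB, semaphorin, ephrin and plexin medians lay between them. Single genes overlapped, with EPHA members at 0.622 to 2.25 and EPHB members at 0.475 to 1.37. The sources used here do not state which part of each transcript was counted in each assay, and these ratios are given as the table has them.

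**Figure D4:**
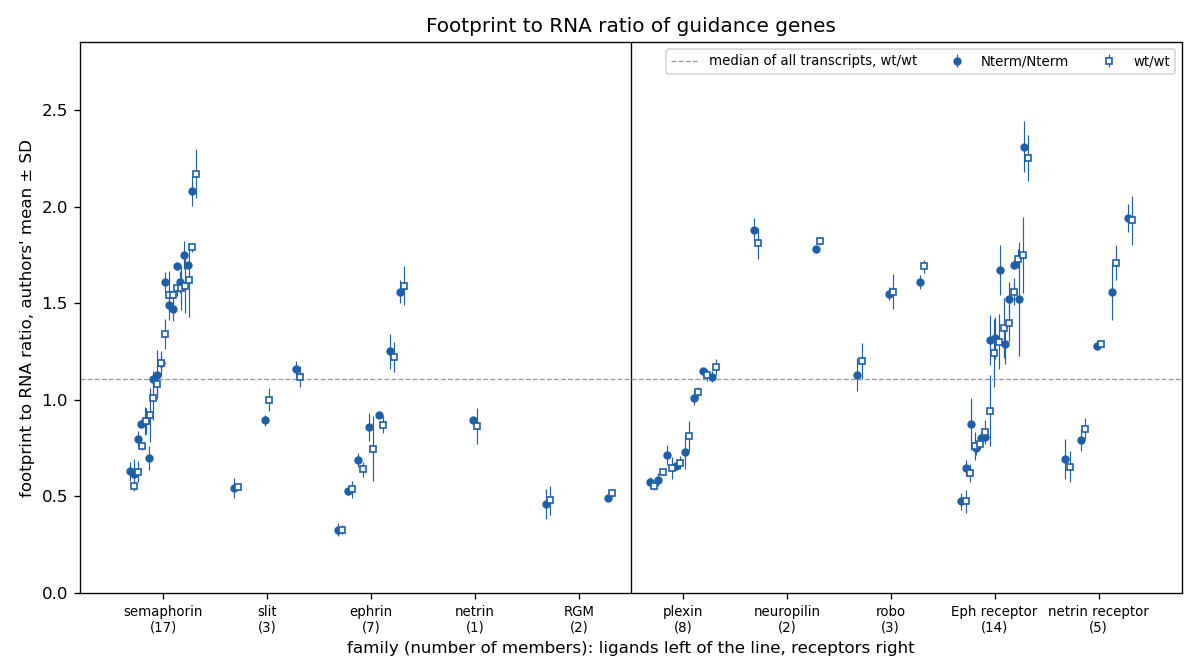
Ratio of footprints to RNA for each of the 62 genes by family, the authors' mean and SD, Nterm/Nterm filled and wt/wt open, with ligand families left of the black line and receptor families right of it. The dashed line is the wt/wt median of all transcripts of the table, 1.11; the genotypes lie close together within a gene, while genes range from 0.328 to 2.25 in wt/wt.

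Of 67 genes acting downstream of guidance receptors, 65 had a named transcript; 13 rose (20.0%) and 8 fell (12.3%) in RNA of Nterm/Nterm neurons, with a median log2 change of 0.04. Among named transcripts 8.91% were higher and 11.7% lower, so the share that fell was near that background. In footprints 6 rose (9.23%) and 5 fell (7.69%), against 4.8% and 8.13% of named transcripts, the share that fell again near the background. With the smallest adjusted p among those that rose were CHN1, chimaerin-1, a Rac-inactivating effector of EphA4 (0.33 ± 0.06, adjusted p = 0.00407), TRIM67, a ubiquitin ligase that binds DCC (0.37 ± 0.08, 0.00689) and DPYSL5, a collapsin response mediator protein (0.29 ± 0.06, 0.0078). Among those that fell they were PAK6, a p21-activated kinase (-0.74 ± 0.09, 0.000439), RRAS, a small GTPase that plexins inactivate (-0.50 ± 0.09, 0.00325) and DOCK1, a Rac activator downstream of DCC (-0.49 ± 0.11, 0.00952). Of 42 other cues and adhesion partners 33 had a named transcript; 12 rose (36.4%) and 4 fell (12.1%, near the background) in RNA, with a median of 0.12. In footprints 1 rose and 1 fell (3.03% each), below the shares of named transcripts. CXCR4, the chemokine receptor (0.37 ± 0.06, adjusted p = 0.00155), the adhesion molecule NCAM1 (0.21 ± 0.04, 0.00786) and the hedgehog co-receptor CDON (0.36 ± 0.08, 0.0125) rose. The receptor phosphatase PTPRF (-0.31 ± 0.05, 0.00305), the growth factor BMP7 (-0.41 ± 0.07, 0.00363) and the heparan sulfate proteoglycan GPC1 (-0.20 ± 0.04, 0.00822) fell. None of the genes of either list passed the test of translational efficiency.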

How the data were processed

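RNA-seq and Ribo-seq were measured in 4 groups of 3 libraries. The deposited counts are unnormalised whole numbers per transcript. The submitters' processing notes name Salmon 1.4.0, Bowtie2 2.3.4.3, cutadapt 2.4, UMI-tools 1.0.1, limma, edgeR and build GRCh37 without their roles. The sources used here do not state how reads shared by transcripts, such as those of close relatives, were counted. The deposited efficiency table holds, per the file headers, the authors' mean ratio of footprints to RNA with its SD per genotype, the ratio of these means and an unadjusted p-value. It also gave the gene names.

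The tests used edgeR 4.0.16 (R 4.3.3) on the counts: TMM scaling, filterByExpr, two-sided quasi-likelihood F test, Benjamini-Hochberg adjustment over all transcripts tested, threshold 0.05. RNA and footprints were fitted separately, and translational efficiency as the interaction over 12 libraries. SE is the log2 change divided by the square root of F. CPM are counts scaled to the library total after the filter times the TMM factor; changes are therefore relative to the other transcripts. DESeq2 1.42.0, other scaling, no filter, single libraries left out, a replicate block, the genotype tag and the secreted ligands alone were alternatives. The steps were tested on simulated data.

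Deviations from the group mean of RNA libraries with the same replicate number correlated at 0.243, 0.199 and 0.427 over 11699 transcripts. RNA libraries with different numbers correlated at -0.304 to 0.133. Footprint libraries with the same number correlated at 0.015, 0.0696 and 0.199, and those with different numbers at -0.141 to 0.0649. Within Nterm/Nterm, RNA and footprint libraries with the same number correlated at 0.149, 0.277 and 0.353. With different numbers they correlated at -0.267 to 0.0381. Within wt/wt these values were 0.0303, 0.0601 and 0.211, and -0.155 to 0.0844. The RNA libraries, and the RNA and footprint libraries of Nterm/Nterm, thus appear paired by number, most clearly for replicate 3. The main fits, that of the interaction included, had no replicate block. Their calls, SEs and adjusted p-values leave the pairing out, and it entered only the alternative run with the block. The pairing comes from this check and not from the labels. Replicates of a group differed by 2.36 to 8.53 times the sampling noise (chi-square per degree of freedom), so no library was a copy.

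The genes and lists were chosen with earlier results of these data known. Values per library are given for the 24 called genes with the smallest adjusted p and for the gene with the highest mean RNA CPM of each family, and from each pathway list the 3 smallest adjusted p in each direction are named; other genes are named after their values were seen. Depth was 12652833 to 25089790 counts per library. Promoters are RefSeq's, matched by symbol, and entries of chromosome 8 were not used here; other reference coordinates were not used, since the files' build differs.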

Additional observations from a re-analysis of the deposited data

How the results depend on the processing

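None of the 30 RNA calls or 14 footprint calls reversed sign in a run that kept the sample titles, and 13 and 7 of them passed in every alternative. The RNA count was 30 with DESeq2's size factors, 28 with the DESeq2 test, 31 without the filter and 14 to 32 with single libraries left out. The footprint count was 23 without the filter, 22 (8 higher, 14 lower) with the replicate block and 9 to 20 with single libraries left out. In efficiency 0 genes were called in each of these runs, the replicate block included, and the authors' unadjusted p gave 3. Grouped by the genotype tag, the footprint calls kept their number, 14, with the directions exchanged, 9 higher and 5 lower, and efficiency gave 42 calls (18 higher, 24 lower), which the construction of that run brings about. The ligand minus receptor difference of medians was 0.02 to 0.05 in RNA, -0.03 to 0.03 in footprints and -0.02 to 0.06 in efficiency with single libraries left out; with the secreted ligands alone it was 0.07, -0.03 and -0.03. The cause of the other shifts was not tested. The lowest count, 82, and 3 libraries a group limit what could be detected.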
